A study of Mus musculus with 16 samples.

Results

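The 10 genes described here handle hemoglobin, heme and iron in macrophages: Cd163 and Lrp1, which take up the haptoglobin and hemopexin complexes, Hmox1, Blvra and Blvrb, which break heme down, the ferritin subunits Fth1 and Ftl1, and the transporters and receptor Slc40a1, Slc11a1 and Tfrc. They were chosen as a pathway by name, are 10 of the 18576 genes found in the tables, and were described by population, genotype and treatment. Immune cells were sorted from mouse brains 2 months p.i. into macrophages (CD11b+ and CD45 high, a gate that also holds infiltrated myeloid cells, neutrophils and NK cells) and microglia (CD11b+ with low or intermediate CD45), and their RNA was sequenced by SMART-seq2, a method for whole transcripts from little input. The mice were males and females, 12 weeks old at surgery, either WT C57BL/6N or CD163KO littermates carrying the CD163tm1.1(KOMP)Vlcg allele, a deletion present in all cells and not in macrophages alone. All received α-syn in both striata, as monomers (MONO) or as pre-formed fibrils (PFF). No group without an injection was analysed here. For each of the 8 combinations of sex, genotype and treatment there was 1 library of macrophages and 1 of microglia, 16 libraries in all, from 4 to 7 mice injected per combination, and whether a table holds pooled triplicates was not given in the sources used here. With 1 library per combination, tests pool over the other factors, and their p-values measure the spread between these libraries.

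Macrophages clear hemoglobin by binding it, with haptoglobin, to the scavenger receptor CD163, while free heme bound to hemopexin enters through LRP1. Heme oxygenase opens the heme ring and releases iron, carbon monoxide and biliverdin, and biliverdin reductases turn biliverdin into bilirubin. The iron is stored in ferritin, exported by ferroportin (Slc40a1), or moved out of phagosomes by NRAMP1 (Slc11a1). Transferrin-bound iron enters through the transferrin receptor (Tfrc). In the brain, CD163 is known as a protein of the macrophages at the borders and around vessels, whereas microglia of the parenchyma are known for little or none of it.

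Iron acts on 4 of these genes after transcription, through a hairpin in the mRNA, the iron-responsive element, which iron regulatory proteins bind when iron is scarce. Bound in the 5′ UTR it blocks translation, and bound in the 3′ UTR it keeps the mRNA from decay. The sequences are shown because the levels below are of mRNA, and for genes with the element in the 5′ UTR the mRNA does not give the protein. A hairpin with the loop CAGTGN, a C ahead of the stem and 5 paired stem bases on each side was found in 5′ UTRs of Fth1, Ftl1 and Slc40a1 and in the 3′ UTR of Tfrc, and in no UTR of the other members. Over 21877 protein-coding genes, 0.142% had such a match in a 5′ UTR and 0.59% in a 3′ UTR. Sequences are from GRCm38 with the GENCODE M21 annotation, on the strand of the gene, with the 6 loop bases in capitals.
Fth1, 5′ UTR, chr19:9982732-9982760, plus strand: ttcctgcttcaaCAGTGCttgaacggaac
Ftl1, 5′ UTR, chr7:45459779-45459807, minus strand: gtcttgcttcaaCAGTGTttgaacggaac
Slc40a1, 5′ UTR, chr1:45925465-45925493, minus strand: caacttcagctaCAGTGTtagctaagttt
Tfrc, first of 4 in the 3′ UTR, chr16:32631219-32631247, plus strand: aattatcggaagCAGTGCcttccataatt
Tfrc, the second, chr16:32631598-32631626, plus strand: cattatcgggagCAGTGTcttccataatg
Tfrc, the third, chr16:32631663-32631691, plus strand: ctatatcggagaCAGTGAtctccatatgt
Tfrc, the fourth, chr16:32631710-32631738, plus strand: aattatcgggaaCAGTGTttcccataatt

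Library totals ran from 12170686 to 21433841 estimated counts in macrophages and from 8648751 to 18768238 in microglia. The summed FPKM (counts per transcript length and library total) of 10 microglia markers was 15900 to 42500 in microglia and 889 to 1630 in macrophages. For 10 markers of border-associated macrophages, with Cd163 not among them, it was 1950 to 5300 in macrophages and 29.2 to 169 in microglia, and for 10 neutrophil markers it was 22100 to 134000 and 947 to 2700. In macrophages, the male WT PFF and male CD163KO MONO libraries stood apart, with a median correlation of 0.803 and 0.857 to the other libraries, against 0.943 to 0.953 for the rest. In microglia, the same combinations had 34.54% and 32.21% of their FPKM on Cst3, which took up to 12.87% elsewhere. The study left out the male CD163KO MONO samples for inconsistent technical replicates, so the 14 other libraries entered the fits. In microglia labelled female CD163KO MONO, Y-linked genes had 799 counts, against at most 2 in the other 7 female libraries and 434 to 1997 in the male microglia. This goes against its label. In the fits it had its labelled sex, genotype and treatment, and these were not changed. The 6 members called between the populations passed without this library too. The sex calls and the Tfrc genotype value in microglia are given with and without it. The members' sex values in microglia and the Tfrc population and interaction values are given only with it.

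Cd163 (chr6:124304636-124330529, GRCm38.p6) was carried by WT macrophages. Its level was 16.2 FPKM in females given MONO, 7.95 in females given PFF, 20.5 in males given MONO and 65.3 in males given PFF. The highest of these came from a library that stands apart. Set against the border-associated macrophage markers of the same library, Cd163 was 0.514% and 0.409% of their summed FPKM in the 2 female libraries, and 0.386% and 1.45% in the 2 male ones. The shorter of the 2 RefSeq transcripts, of 4409 bases, took most of the reads in all 4, with 679.7 of 987 estimated counts in females given MONO and 695.5 of 748 in females given PFF.

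In WT microglia Cd163 was near 0, with 1.21 and 1.43 FPKM in females given MONO and PFF and 0.0 and 0.01 in males. Against the much lower border-associated macrophage markers of these libraries, that was 0.773% and 1.1% in females, above the share in female macrophages, and 0.0% and 0.0343% in males. Relative to library totals, WT macrophages held 13.5 times as much of it as WT microglia in females given MONO and 5.56 times as much in females given PFF. In males, where the microglia held 0 and 1 counts, the macrophages were at least 260 times higher with MONO and at least 1800 times higher with PFF, taking 3 counts as the limit for each microglia library. Over the 4 WT pairs alone the difference passed the test (log2 fold change of microglia against macrophages -7.44 ± 1.39 SE, adjusted p = 0.0221, edgeR's quasi-likelihood test over all genes). Over the 7 pairs of both genotypes it did not (-4.20 ± 2.07, adjusted p = 0.189), although it passed there with limma on log2(FPKM + 1) (-2.09 ± 0.71, adjusted p = 0.0264), with the deleted gene at 0 or 1 count in the CD163KO macrophages. In a sorted population, fewer cells carrying a transcript and less RNA per cell cannot be told apart.

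The deletion was seen in macrophages and not in every microglia library. In CD163KO macrophages Cd163 had 1 count in males given PFF and 0 in the other 3 libraries, which put it at least 142 times lower than in the WT library of the same sex and treatment in females given PFF and at least 2030 times lower in males given PFF. Between genotypes in macrophages, with sex and treatment as further terms, Cd163 was the only gene of 11985 called (0.00834%), with a log2 fold change of -11.3 ± 0.83 SE and an adjusted p of 0.0101. A fitted fold against libraries at 0 depends on the prior count and is no bound. The call was lost without the female CD163KO PFF library (adjusted p = 0.0794), the female WT PFF library (0.0808) or the male CD163KO PFF library (0.41), while the fitted difference stayed between -13.4 and -10.9 in every such fit. In microglia, the CD163KO libraries held 0.32 and 0.15 FPKM in females (MONO, PFF) and 0.13 and 0.07 in males, so the female CD163KO libraries lay below and the male ones above the WT libraries of their sex. The fit gave -0.95 ± 2.17 SE for the genotype difference in microglia (adjusted p = 1.0), and Cd163 therefore does not check the genotype of the microglia libraries.

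**Figure D1:**
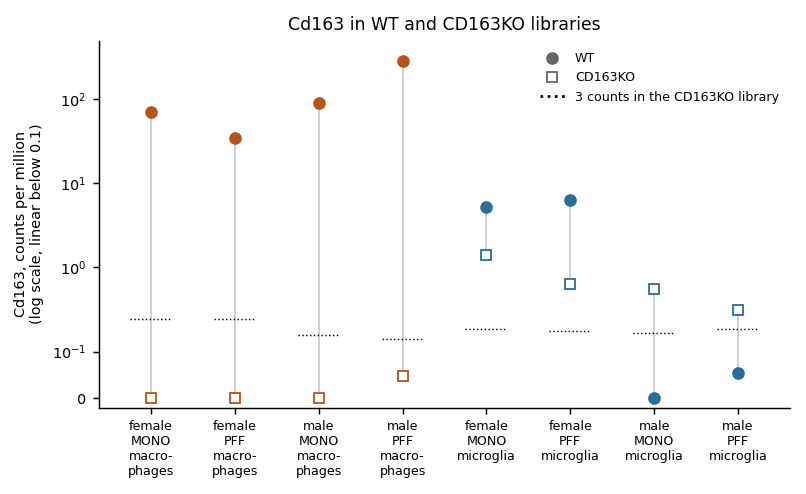
Cd163 in CPM, its counts scaled to the library total (log axis, linear below 0.1) for the 8 combinations of population, sex and treatment, with the WT library as a filled circle, the CD163KO library as an open square and a dotted line at 3 counts of the CD163KO library. WT macrophages lie between 34.9 and 288 CPM, and in male microglia the CD163KO libraries lie above the WT ones.

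Between the populations, 6 of the 10 genes passed the test, 5 lower in microglia (Hmox1, Blvra, Blvrb, Fth1, Ftl1) and 1 higher (Lrp1), against 18.2% of the 13700 genes tested. The median log2 fold change was -1.98 over the members and 0.37 over all genes. TMM scaling, which sets a library by the bulk of its genes, was the main scale, and scaling by library totals, which FPKM use, moved the median of all genes to 1.96. On that second scale Lrp1 stayed higher and Fth1 and Ftl1 stayed lower in microglia, Blvrb missed the threshold (adjusted p = 0.0534), Hmox1 and Blvra no longer passed (0.535 and 0.483), Slc11a1 and Tfrc passed as higher in microglia (0.00303 and 0.0346), and Slc40a1 turned from a lower to a higher value without passing on either scale. Measured from the median gene of each scale, the members moved little: Hmox1 lay at -2.36 with TMM and -2.49 with library totals, Blvra at -2.34 and -2.45, and Ftl1 at -4.40 and -4.29. Counts of called genes over all genes were 909 higher and 1590 lower in microglia with TMM, and 5713 higher and 599 lower with library totals.

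**Figure D2:**
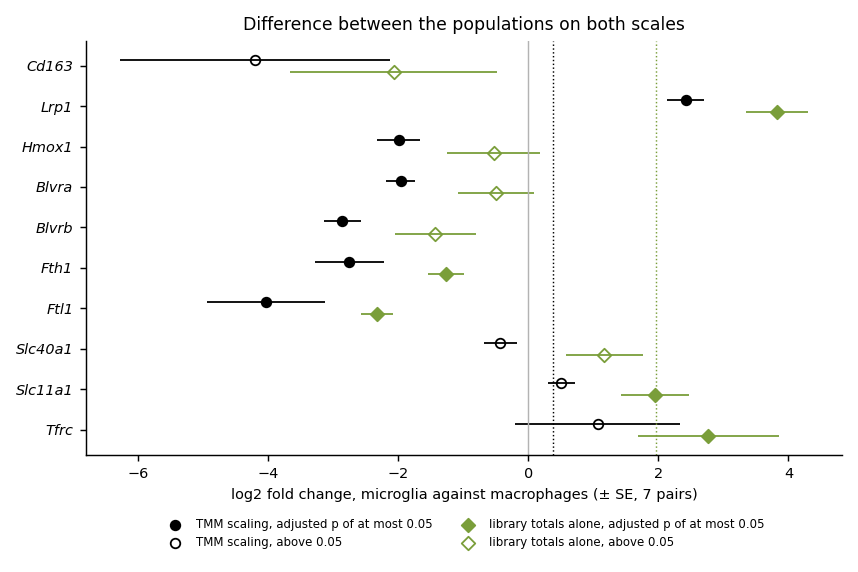
Log2 fold change of microglia against macrophages for the 10 genes, with SE over 7 matched pairs, under TMM scaling (circles) and library totals (diamonds), filled where the adjusted p is at most 0.05, with dotted lines at the median of all genes (0.37 and 1.96). Lrp1 lies right of both medians, and Hmox1, Blvra, Blvrb, Fth1 and Ftl1 lie left of 0 on both scales.

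**Figure D3:**
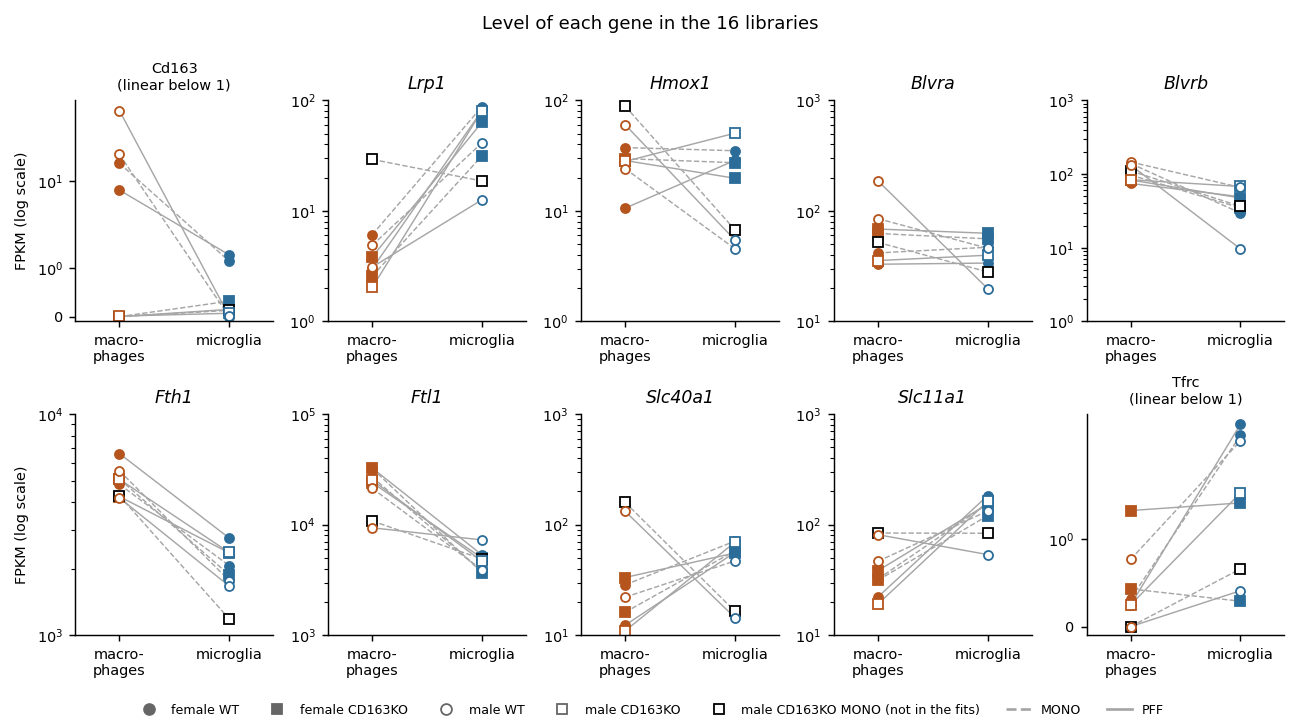
FPKM of each gene (log axes, linear below 1 for Cd163 and Tfrc) in macrophages and microglia, with a line joining the libraries of 1 combination, circles for WT, squares for CD163KO, filled symbols for females and open ones for males. Blvrb, Fth1 and Ftl1 slope down along all 8 lines, and the black-edged male CD163KO MONO pair runs against the others for Lrp1.

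Lrp1 (chr10:127538157-127621148), the large endocytic receptor that takes up heme with hemopexin among many other ligands, was the member that was higher in microglia. Its FPKM in macrophages were 2.57, 3.84, 6.08 and 3.0 in the female CD163KO MONO, CD163KO PFF, WT MONO and WT PFF libraries, and 29.2, 2.03, 4.88 and 3.1 in the male ones. In microglia they were 31.4, 63.3, 87.7 and 81.0 in females and 18.6, 80.5, 41.3 and 12.6 in males, in the same order. The male CD163KO MONO pair, left out of the fit, was the 1 pair of 8 in which the macrophages were higher. The log2 fold change was 2.42 ± 0.29 SE (adjusted p = 0.000126), and 3.82 ± 0.48 with library totals. The 7 macrophage libraries of the fits, at most 6.08, lay below all 8 microglia libraries.

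The enzymes of heme breakdown were lower in microglia relative to other genes, and only Blvrb was lower in every library pair in FPKM. Hmox1 (chr8:75093618-75100593), the inducible heme oxygenase, was at 10.6 to 88.6 FPKM in macrophages (median 29.1) and at 4.55 to 50.4 in microglia (median 23.5), and the ranges overlapped. It was lower in microglia in 6 of the 8 pairs, and the largest gaps were in males, 88.6 against 6.75 with CD163KO MONO, 60.3 against 5.46 with WT PFF and 24.1 against 4.55 with WT MONO. The first 2 of these are the combinations that stand apart. In the 2 pairs that went the other way, macrophages and microglia were at 10.57 and 28.6 with female WT PFF and at 27.97 and 50.39 with male CD163KO PFF. Without the male WT PFF pair, its log2 fold change of -1.99 ± 0.33 SE (adjusted p = 0.00131) was -2.01. With the 4 WT pairs alone it was -2.03 ± 0.59 and did not pass (adjusted p = 0.112), nor did it with limma on log2(FPKM + 1), at -0.57 ± 0.55 (adjusted p = 0.388).

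Blvra (chr2:127070629-127097084), biliverdin reductase A, had nearly the same FPKM in both populations in most pairs. It was at 32.9 and 33.7 FPKM in female WT PFF macrophages and microglia, at 62.4 and 55.9 with female CD163KO MONO, and at 187 and 19.8 with male WT PFF. The call for Blvra (log2 fold change -1.96 ± 0.23 SE, adjusted p = 0.000105) states its place among other genes, whose median was higher in microglia by 1.96 with library totals. With limma on log2(FPKM + 1) it did not pass (-0.57 ± 0.47 SE, adjusted p = 0.304). Blvrb (chr7:27447978-27465981), which reduces biliverdin and flavins, was at 74.4 to 145 FPKM in macrophages and at 9.63 to 67.7 in microglia, and the ranges did not overlap over the 8 libraries of each. Its log2 fold change was -2.86 ± 0.28 SE (adjusted p = 3.79e-05). The ratio of Blvra to Blvrb in FPKM was 0.301 to 1.42 in macrophages (median 0.528) and 0.587 to 2.06 in microglia (median 1.05).

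Ferritin took a large share of the reads in macrophages. Ftl1 (chr7:45457944-45459886), the light subunit, was at 9376 to 32530 FPKM in macrophages (median 24650) and 3684 to 7280 in microglia (median 4790), and was between the 5th and the 9th most abundant gene of each macrophage library. Fth1 (chr19:9980600-9985111), the heavy subunit with the ferroxidase site, was at 4184 to 6631 FPKM (median 4945) in macrophages and 1187 to 2752 (median 1971) in microglia. Together they held 1.27% to 3.65% of the counts of a macrophage library and 0.515% to 0.824% of a microglia library. Neither gene overlapped between the populations, and both were lower in microglia in 8 of 8 pairs. With TMM the log2 fold change was -2.75 ± 0.53 SE for Fth1 (adjusted p = 0.00333) and -4.03 ± 0.91 for Ftl1 (adjusted p = 0.00903). With library totals, which FPKM use, it was smaller, at -1.27 ± 0.275 SE for Fth1 and -2.33 ± 0.247 for Ftl1. With TMM and the 4 WT pairs alone, the values were -2.42 ± 0.98 SE for Fth1 and -3.45 ± 1.99 for Ftl1, and neither passed (adjusted p = 0.281 and 0.459). Both genes have many processed copies in the mouse genome, and reads could be shared with them, which was not tested.

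Ftl1 was higher per Fth1 in macrophages in 6 of the 7 pairs of the fits. In FPKM, macrophages held 6.34, 5.66, 5.59 and 4.91 Ftl1 per Fth1 in the female CD163KO MONO, CD163KO PFF, WT MONO and WT PFF libraries, and 2.53, 4.98, 3.84 and 2.24 in the male ones. Microglia held 1.96, 2.12, 1.84 and 1.94 in females and 4.13, 1.98, 2.21 and 4.36 in males, in the same order. The 2 combinations that stand apart in males were reversed in both populations, and the female values varied least. The log2 ratio of Fth1 to Ftl1 was higher in microglia by 1.03 ± 0.92 (SD, 7 pairs, exact two-sided paired permutation test, p = 0.0469, the smallest possible being 0.0156). With the male CD163KO MONO pair added it was 0.815 (8 pairs, exact p = 0.0781). Without the male WT PFF pair it was 1.36 ± 0.31 SD (6 pairs, exact p = 0.0312, the smallest possible with 6 pairs). Without any 1 of the other 6 pairs the p was above 0.05, between 0.0625 and 0.0938.

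**Figure D4:**
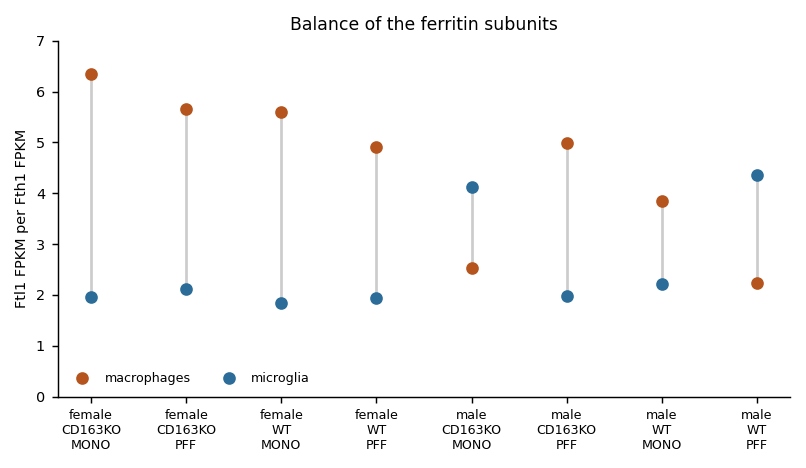
Ftl1 FPKM per Fth1 FPKM in macrophages and microglia for each combination of sex, genotype and treatment, 1 library per point. Macrophages lie between 3.84 and 6.34 and microglia between 1.84 and 2.21 except in male CD163KO MONO and male WT PFF, where the order is reversed.

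None of the members that serve iron export and transport (Slc40a1, Slc11a1 and Tfrc) passed in edgeR with TMM and the filter on low counts. Slc40a1 (chr1:45908070-45926532), ferroportin, the cell's iron exporter, was at 132 FPKM in male WT PFF macrophages and 159 in male CD163KO MONO macrophages, against 10.9 to 33.3 in the other 6. In microglia the same 2 combinations were the lowest, at 14.5 and 16.5, against 46.9 to 71.0 in the other 6. Over 7 pairs the log2 fold change was -0.43 ± 0.25 SE (adjusted p = 0.262) and the sign turned with library totals (1.17 ± 0.60, adjusted p = 0.0971). The libraries that stand apart hold the extremes of this gene in both populations.

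Slc11a1 (chr1:74375014-74386057), NRAMP1, a metal transporter of phagosomes, was at 19.1 to 84.0 FPKM in macrophages (median 35.3) and 53.7 to 183 in microglia (median 143). It was higher in microglia in 6 of 8 pairs, the other 2 being male CD163KO MONO (84.0 and 83.6) and male WT PFF (81.2 and 53.7). Its log2 fold change was 0.51 ± 0.21 SE (adjusted p = 0.124) with TMM and 1.95 ± 0.53 (adjusted p = 0.00303) with library totals, with the median gene at 0.37 and 1.96. It also passed as higher in microglia with DESeq2 (0.585, adjusted p = 0.0415), in edgeR with no filter on low counts (0.846, adjusted p = 0.0208) and with limma on log2(FPKM + 1) (1.86, adjusted p = 0.00528). Tfrc (chr16:32608896-32632794), the transferrin receptor, was the scarcest member in WT macrophages and, leaving the deleted Cd163 aside, in CD163KO ones. It had 0 to 90 counts and at most 1.52 FPKM in macrophages, and was at 0.29 to 5.38 FPKM in microglia. Its log2 fold change was 1.07 ± 1.27 SE with TMM (adjusted p = 0.598), and it passed with library totals (2.77 ± 1.09, adjusted p = 0.0346) and with limma on log2(FPKM + 1) (1.10 ± 0.35, adjusted p = 0.0203). The 3 highest levels of Tfrc were those of WT microglia, at 4.57 and 5.38 FPKM in females given MONO and PFF and 4.22 in males given MONO, while males given PFF held 0.41.

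By median FPKM the members other than Cd163 ran in macrophages from Ftl1 and Fth1 through Blvrb (103.5), Blvra (57.2), Slc11a1 (35.3), Hmox1 (29.1), Slc40a1 (25.3) and Lrp1 (3.47) to Tfrc (0.285). Cd163 has no single place there, being at 7.95 to 65.33 FPKM in WT macrophages, above Lrp1 in each of the 4 libraries, and at 0.0 to 0.01 in CD163KO ones. In microglia the 10 members ran from Ftl1 and Fth1 through Slc11a1 (143), Slc40a1 (55.8), Lrp1 (52.3), Blvra (42.8), Blvrb (41.8), Hmox1 (23.5) and Tfrc (1.84) to Cd163 (0.14). Ftl1, Fth1 and the third gene did not overlap with each other in either population, nor did Lrp1 and Tfrc in macrophages. All other neighbours in these orders overlapped.

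Of 57 further genes of heme and iron handling in 7 groups, 50 were tested between the populations and 11 passed, 2 higher and 9 lower in microglia (20 higher and 4 lower with library totals), around a median log2 fold change of 0.15 (all genes 0.37). This share is near the 18.2% of all genes called, so the calls below describe single genes and are no result about the list. Among 9 tested genes of heme and hemoglobin transport, Hp, haptoglobin, the plasma partner of hemoglobin that CD163 binds, was lower in microglia (230 FPKM on average in macrophages and 2.59 in microglia, log2 fold change -8.04 ± 0.79 SE, adjusted p = 3.37e-05). Slc48a1, which moves heme out of lysosomes, was lower (-1.56 ± 0.29, adjusted p = 0.00285) with like mean FPKM in both (12.2 and 11.6), and Hebp1, a heme-binding protein, was higher (6.58 ± 1.83, adjusted p = 0.0275). Of 11 genes of transferrin and iron uptake, Lcn2, the siderophore-binding lipocalin, passed (257 and 14 FPKM, log2 fold change -5.44 ± 0.47 SE, adjusted p = 1.29e-05). Hp and Lcn2 are also known as products of neutrophils, whose markers moved with them as given above. The part of these cells in the result was not tested.

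Of 5 genes of heme breakdown, 2 were lower in microglia, Hmox2, the constitutive heme oxygenase (-1.01 ± 0.26 SE, adjusted p = 0.0177), and Spic, a transcription factor of red pulp macrophages (-7.96 ± 2.43, adjusted p = 0.0416). Of 9 genes of heme synthesis, Alas1, the first enzyme, was lower (-0.999 ± 0.24, adjusted p = 0.012). Hmox2 and Alas1 had positive values with library totals, 0.41 and 0.50, without passing. Among the 3 tested genes of iron export, Cp, the ferroxidase ceruloplasmin, was lower (12.1 and 0.696 FPKM, -5.96 ± 0.75 SE, adjusted p = 0.000194). Of 7 genes of mitochondrial iron, Glrx5 was lower (-2.65 ± 0.56, adjusted p = 0.00623), which serves iron-sulphur cluster assembly. Of 6 genes of cytosolic iron control, Ireb2, an iron regulatory protein that binds the hairpins shown above, was higher (0.466 and 6.59 FPKM, 2.52 ± 0.70, adjusted p = 0.0277) and Pcbp1, an iron chaperone for ferritin, was lower (-2.17 ± 0.62, adjusted p = 0.0318). With library totals, Hp, Lcn2, Cp, Spic, Hebp1 and Ireb2 passed in the same direction, whereas Pcbp1, Glrx5 and Slc48a1 did not pass.

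Whether α-syn PFF changed these genes relative to MONO was asked in each population, with sex and genotype as further terms over 7 libraries. In macrophages none of the 10 members passed (0.0% of 11985 genes called by edgeR, 125 of them with an unadjusted p under 0.05 and 8 called by DESeq2), and the member values ran from -0.69 to 0.77 on the log2 scale. Slc40a1 had the largest of them, at 0.77 ± 0.52 SE (adjusted p = 1.0). In microglia none passed either (0.0% of 12736 genes called, 769 with an unadjusted p under 0.05 and 26 called by DESeq2). All 10 microglia values were above 0 with TMM, from 0.15 for Slc40a1 to 1.23 ± 0.96 SE for Ftl1 (adjusted p = 0.83), around a median of 0.70 against 0.13 for all genes, whereas with library totals 6 were above 0 and 4 below, around a median of 0.23 against -0.38. Fth1 was at 2752 FPKM with PFF and 2066 with MONO in female WT microglia, and at 2359 and 1876 in female CD163KO microglia. In males it was at 1669 with PFF and 1768 with MONO in WT microglia, and at 2368 and 1187 in CD163KO microglia, the last of these from a library outside the fits. Fth1 was higher with PFF in 3 of the 4 microglia pairs. Of these, 1 used the male library outside the fits, and 1 used the female CD163KO MONO library whose Y-linked counts go against its label. The count was not set beside that of all genes.

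Between genotypes, none of the 9 members other than Cd163 passed in either population. In macrophages the values of these 9 ran from -0.47 for Slc40a1 (± 0.53 SE) to 1.398 for Tfrc (± 2.31). Of all 10 members, 6 had higher and 4 lower values in CD163KO with TMM, against 2 higher and 8 lower with library totals. Hmox1 was at 0.60 ± 0.42 SE with TMM (adjusted p = 1.0) and at -0.022 with library totals. In females given PFF, its level was 28.5 FPKM in CD163KO and 10.6 in WT macrophages, and in females given MONO it was 29.7 and 37.4. In males given PFF it was 27.97 in CD163KO and 60.3 in WT macrophages, and in males given MONO it was 88.6 and 24.1. CD163KO was the higher in females given PFF and in males given MONO, the latter from a library outside the fits, and the lower in the other 2. In microglia 0.0% of 12736 genes were called (168 with an unadjusted p under 0.05, 3 called by DESeq2), and Tfrc had the lowest member p, with a log2 fold change of -1.96 ± 0.85 SE (unadjusted p = 0.0416, adjusted p = 1.0, edgeR). Tfrc was at 0.29 and 1.7 FPKM in the female CD163KO libraries (MONO, PFF) and at 1.97 in the male CD163KO PFF library. Without the female CD163KO MONO library, the Tfrc value was -0.90 (adjusted p = 1.0), and without the male WT PFF library it was -2.70 (unadjusted p = 0.00858, adjusted p = 1.0).

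**Figure D5:**
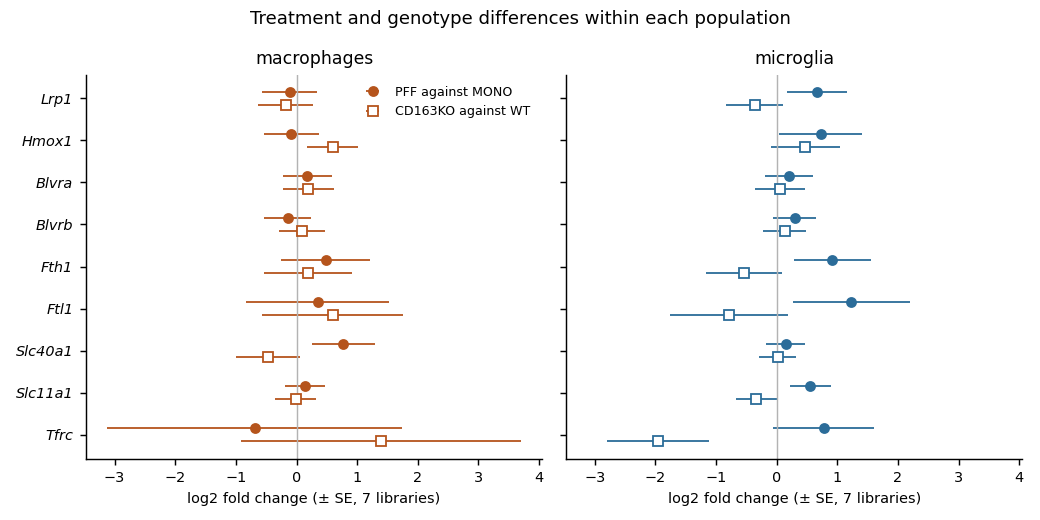
Log2 fold change with SE of PFF against MONO (filled circles) and of CD163KO against WT (open squares) for the 9 members other than Cd163, over 7 libraries of macrophages (left) and of microglia (right). With the TMM scaling shown, the values of PFF against MONO in microglia lie right of 0 (4 of the 10 members lie below 0 with library totals), none of the values shown passed the test, and Tfrc in macrophages has the widest error.

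Between the sexes, none of the members passed in macrophages (0.0% of 11985 genes called, 154 with an unadjusted p under 0.05, 17 called by DESeq2) or in microglia (0.0% of 12736 genes, 215 and 20). Y-linked genes were not called in macrophages either. Their summed counts were 350 to 6545 in the male macrophage libraries of the fits and at most 2 in the female ones. The absence of calls there therefore does not show that the members were alike between the sexes. Without the female CD163KO MONO microglia library, 3 genes of 12567 were called, Ddx3y, Eif2s3y and Gm20831, all higher in males, and again no member. The member values ran from -1.18 for Ftl1 to 0.68 for Cd163 in macrophages. In microglia, with that library kept as female, they ran from -4.20 for Cd163 to 0.91 for Ftl1. The lowest member p in macrophages was that of Lrp1 (-0.81 ± 0.44 SE in males, unadjusted p = 0.103, adjusted p = 1.0). In microglia Cd163 had a difference of -4.20 ± 2.51 SE (adjusted p = 1.0), resting on libraries with 0 to 101 counts. Whether the response to PFF differed between the genotypes was fitted with 2 residual degrees of freedom, and no member passed in macrophages (0.0% of 13016 genes called, 59 with an unadjusted p under 0.05, 16 called by DESeq2) or in microglia (0.0351% of 14225 genes, 683 and 29). Of the 5 genes called in microglia, all with lower values, 3 were the Y-linked Ddx3y, Eif2s3y and Gm20831, named after their values were seen, and the female CD163KO MONO library with Y-linked counts is 1 of the 7. The member values of the interaction ran from -1.24 for Blvra to 4.22 ± 6.39 SE for Tfrc in macrophages and from -2.09 for Ftl1 to 3.18 for Tfrc in microglia. The median of all genes was 1.056 in macrophages, with 8 of the 10 members below it, and 0.017 in microglia. With library totals, 9 of the 10 microglia values were above 0, with the median of all genes at 1.475. Tfrc was the member with the lowest interaction p in microglia (SE 1.60, unadjusted p = 0.0576, adjusted p = 1.0).

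The genes with the pattern most like that of Cd163 over the 8 WT libraries, by Pearson's correlation of log2(FPKM + 1) among 9155 genes, were Cd300lb (0.991), Cd300lf and Arhgap15 (both 0.988), L1cam (0.985) and Msr1 (0.984). Over all 16 libraries and 10846 genes, those nearest to Hmox1 were Cd200r1 (0.886), Lilra5 (0.881), Aldh2 (0.874), Stab1 (0.865) and Olfm4 (0.861). For Slc40a1 they were Ppp4r3b (0.97), Gpkow (0.962), Dcaf12 and Gnai3 (both 0.959) and Fam136a (0.958), and for Tfrc Zfp280b (0.947), Sppl2b (0.941), H2bc6 (0.931), Tlr5 (0.909) and Rint1 (0.905). The libraries share the split into 2 populations and the combinations that stand apart, so these values describe the 16 libraries and carry no test.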

How the data were processed

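RNA of 16 libraries was measured by SMART-seq2, 1 per combination of population, sex, genotype and treatment. The authors filtered reads, mapped them with Bowtie2 and estimated expression with RSEM (mm10 and DESeq2 are also named in the submitters' processing notes). The deposited tables list RefSeq transcripts with estimated counts, which are not normalized, and with FPKM, which the authors scaled to length and library total. Transcripts that a table does not list were taken as 0. Names from RefSeq (GRCm38.p6) were found for 27627 of 27787 transcripts (the others held at most 0.142% of the counts), and values were summed to 18576 genes. Counts rounded to whole numbers were fitted with edgeR 4.0.16 (quasi-likelihood test, filterByExpr, TMM), without the male CD163KO MONO libraries. The population comparison used the combination as a block (7 pairs), and the others used additive terms for sex, genotype and treatment (3 residual degrees of freedom). A gene was called at a Benjamini-Hochberg adjusted p of at most 0.05 over all genes tested. The ferritin ratio was tested by exact sign flips. Alternatives used DESeq2 1.42.0, limma 3.58.1 on log2(FPKM + 1), library totals, no filter and libraries left out. The procedure was tested on simulated data.

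The 10 members, the 57 pathway genes and the marker lists were chosen with earlier results of these data known. Some called genes outside these lists are not reported here. All members were tested in each comparison, where they are given singly or by their range, and pathway genes are named only when past the test (at most 3 per group between populations). The 5 genes nearest in pattern to Cd163, Hmox1, Slc40a1 and Tfrc are named as well. Genome sequence and UTRs came from GRCm38 with GENCODE M21. The batches of mice are not tied to libraries in the labels, so no term for them was fitted. The precision follows from library totals of 8648751 to 21433841 counts, and limits of 3 counts cover counting error only, since PCR copies are counted as separate reads. Tables were joined with Python 3.11.15 and pandas 2.3.3.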

Additional observations from a re-analysis of the deposited data

Results flagged for a closer look

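Cd163 had 10 estimated counts in the male CD163KO MONO microglia, a library that enters no fit, above the limit of 3 counts, and 0 counts in the WT microglia of the same sex and treatment. The genotype of this library was not tested by any other gene.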

How the results depend on the processing

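Over 1176 values of single members under the alternatives, 1157 kept their side of the threshold, 11 lost it, 8 gained it and none that passed turned its sign, while 193 values that never passed changed sign. Between the populations, 4 to 7 of the 10 members passed, and the 6 of the main test passed each time a pair was left out. Over all genes the count of calls was 2499, and 6312 with library totals, 4717 with DESeq2, 6327 with limma, 4869 without the male WT PFF pair and 546 with the WT pairs alone. The causes were not tested. Fewer libraries entered both the fit without the male WT PFF pair and the fit of the WT pairs alone. In the CD163KO comparison in macrophages, between 0 and 1 member was called when a library was left out. The log2 ratio of Fth1 to Ftl1 was 0.815 with all 8 pairs and between 0.922 and 1.364 when a pair was left out. Leaving out the male WT PFF libraries was chosen after seeing the data. In the condition tests, the count over all genes was at most 31 in macrophages and at most 105 in microglia, the latter for the interaction without a filter on low counts, and no member other than Cd163 was called in any of these. The interaction in microglia without the female CD163KO MONO library was not run, because no CD163KO MONO library remained. Pairs were matched by sex, genotype and treatment, since the labels give no replicate numbers to block on. At the depths here, Tfrc in macrophages and Cd163 in microglia rest on at most 90 and 101 counts.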
